A study of Homo sapiens with 1 sample.

Results

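The 5′ external transcribed spacer (5′ETS) is the stretch of the ribosomal RNA precursor that lies between the transcription start and 18S. It was examined in the negative control of a PAR-CLIP experiment, in which RNA is crosslinked to proteins and recovered with them. The deposited profile of the human rDNA unit assigns 366 bins of 10 bases to this region, and all of them but the last 10, next to 18S, were described. These bins run from base 1, the transcription start, to the bin that starts at base 3551, and belong to the 1334 bins of the transcribed unit and the 4473 bins of the whole rDNA unit. The control was 1 library of HEK293T cells, a human embryonic kidney line. They expressed the SFB tag (S-protein, FLAG and streptavidin-binding peptide) from an empty vector with no protein fused to it. The cells took up 0.1 mM thioguanosine (6SG) overnight, were exposed to UV light of 365 nm at 0.4 J per square centimetre, and RNA was pulled down with streptavidin and then FLAG resin. With 1 library there was no replicate, and neither a replicate error nor a test between conditions could be given. Cells expressing the BRCA1 BRCT domain or BARD1 with the tag are not analysed here.

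RNA polymerase I transcribes 18S, 5.8S and 28S as 1 precursor, in which the 5′ETS comes first and the internal spacers ITS1 and ITS2 separate the mature rRNAs. In human cells the 5′ETS is cut at an early site a little over 410 bases from the start, then at site A0 in the middle of the spacer, and finally at the 5′ end of 18S, while the U3 small nucleolar RNA pairs with the spacer and guides this processing. The cut pieces are degraded by exonucleases, so that mature ribosomes carry no 5′ETS, and reads from it mark precursors and pieces of them. The positions of the early site and of A0 were taken from general knowledge of human pre-rRNA and not from these data.

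The sequence of the deposited rDNA unit was not used here, and 2 annotated short RNAs are printed in its place. In the RefSeq genes of GRCh38.p14, the distance from the start of the precursor to 18S was 3631 to 3658 bases in 5 annotated rDNA copies, against a 5′ETS that ends in the bin from 3651 to 3660 in the deposited profile. A microRNA gene was annotated inside this stretch in 2 of the copies. Only copies on the chromosome of the MIR10396B gene were searched for one. The sequences are shown for the G and C composition of RNA annotated in this stretch. MIR10396B lies in the copy RNA45SN1, and its hairpin (chr21:8436324-8436374, plus strand, GRCh38.p14, RefSeq) is printed with the mature arms in capitals. The mature arms and hsa-miR-3648 are printed with the seed, bases 2 to 8, in capitals.
MIR10396B hairpin: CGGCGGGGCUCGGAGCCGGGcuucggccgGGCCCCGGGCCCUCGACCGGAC
hsa-miR-10396b-5p: cGGCGGGGcucggagccggg
hsa-miR-10396b-3p: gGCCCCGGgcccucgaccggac
hsa-miR-3648: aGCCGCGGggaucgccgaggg
The hairpin has 86.3% G and C over 51 bases, and hsa-miR-3648 has 81.0% over 21 bases. The latter sequence is given for MIR3648-2 (chr21:8987026-8987046, plus strand, GRCh38.p14), which lies outside the 5 copies, whereas the gene annotated inside the copy RNA45SN2 is MIR3648-1, and whether that gene holds the same sequence was not tested. The 3 seeds differ from each other.

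The counts of the bins were low at both ends of the 5′ETS, and the highest bins lay between them. Low stretches lay there too, with a median of 100.5 in the bins from 1501 to 1600. The first 3 bins held 2 reads each (95% exact Poisson interval of a bin of 2 reads 0.242 to 7.22, counting error only), the highest bin held 14361 (14127 to 14598), and the last bin, which starts at 3551, held 23 (14.6 to 34.5). The median of the bins was 410, with quartiles of 147.8 and 934.5, and no bin was at 0. The mean was 1227, 2.99 times the median. The summed counts of these bins were 436908, which is 1.13% of those of the transcribed unit. A read was taken to enter every bin it covers, so this sum exceeds the number of reads, and neighbouring bins are not independent. With alignments no longer than the 150 bases of a read, at least 29448 of them lay on these bins, which equals 0.0893% of the 32971244 reads of the 16485622 pairs that STAR left unaligned and that could enter the BLASTN step. The bins hold these unaligned reads only, and rRNA reads that STAR placed on the genome are not in them.

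**Figure D1:**
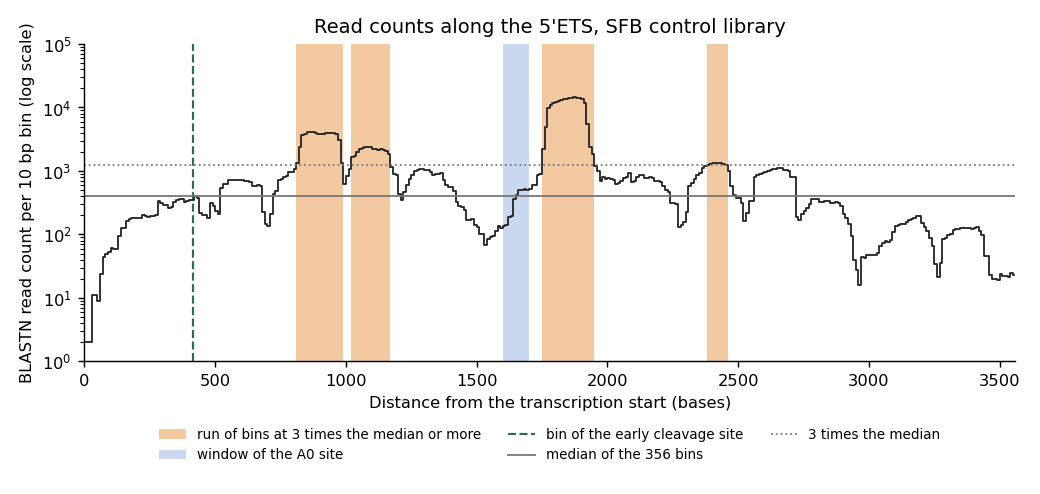
Read count per 10 bp bin (log scale) of the SFB control library against the distance from the transcription start in bases. Orange bands are the 4 runs of bins of at least 3 times the median, the blue band is the window of the A0 site, the dashed green line marks the bin of the early cleavage site, and the grey lines mark the median (410) and 3 times the median (1230). Counts are 2 at the start, 4102 in the bin from 861 to 870 and 68 in the bin from 1531 to 1540. They are 14361 in the bin from 1871 to 1880 and 23 in the last bin.

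The rise from the transcription start was steep. The highest count was 53 in the first 100 bases and 401 in the first 500. A count of 100 was first passed in the bin from 141, with 126 reads, and a count of 1000 in the bin from 801, with 1055 reads. In blocks of 100 bases, the median per bin was 11.0 from 1 to 100, 126.0 from 101 to 200, 194.0 from 201 to 300 and 325.5 from 301 to 400. The blocks from 801 to 900 and from 901 to 1000 had medians of 3817 and 3851. Over the first 1000 bases, count and position had a Spearman correlation of 0.90 across 100 bins, given as a description because bins within 1 read of each other share reads. Fewer positions of a read of 150 bases can cover the first 150 bases than can cover later bases, and the part of this edge in the rise was not tested.

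Beyond the middle of the 5′ETS the counts fell towards 18S. In blocks of 500 bases, the median per bin was 193.0, 727.5, 907.0, 772.5, 754.0, 328.5 and 105.0 from the first block to the block from 3001 to 3500. The last bin at or above the median was that from 2711 to 2720, and the 84 bins after it held at most 362 reads. Over the last 1000 bases, from base 2561 on, the Spearman correlation of count with position was -0.77 across 100 bins. Over the whole profile it was -0.24, since the rise and the fall lie in 1 profile.

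The median of the first 1000 bases was 345.0 and that of the last 1000 bases 128.5, a ratio of 2.68. The 156 bins between them, from 1001 to 2560, had a median of 774.5, which was 2.24 times that of the first and 6.03 times that of the last 1000 bases. Of the summed counts, 21.0% lay in the first 1000 bases, 72.8% in the stretch between and 6.14% in the last 1000 bases. The ratio of the ends was 3.81 without the first 150 bases and 1.84 with 500 bases at each end. Levels thus did not fall steadily from the start, and the highest bins lay between 800 and 2000 bases from it. That stretch was not high throughout, with a median of 100.5 from 1501 to 1600.

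**Figure D2:**
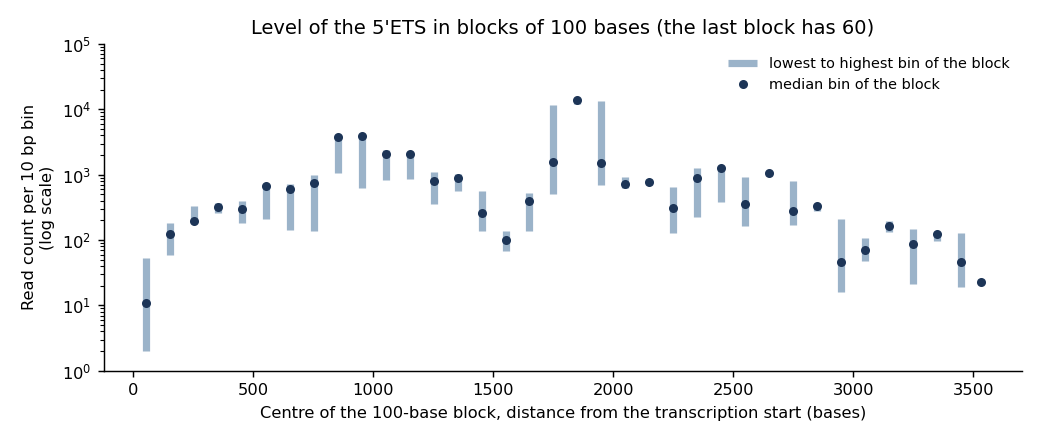
Median read count per 10 bp bin (points, log scale) and the range from the lowest to the highest bin (bars) in blocks of 100 bases, against the distance of the block centre from the transcription start. The medians are 11.0 in the first block, 3851 in the block from 901 to 1000 and 100.5 in the block from 1501 to 1600. They are 13790 in the block from 1801 to 1900 and 22.5 in the last block, which has 60 bases.

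Peaks were read against the median of 410, as runs of bins with at least 3 times this count, 1230 reads. There were 61 such bins, 17.1% of those described, which formed 4 runs and held 72.3% of the summed counts. The same rule against the median of each region called 19.2% of the 968 bins in the other regions of the transcribed unit, 30.6% in ITS1 and 23.9% in ITS2, so the share of high bins in the 5′ETS was near that of the rest of the unit. The 295 bins outside the runs had a median of 314.0, with a range from 2 to 1216.

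The highest peak ran from 1751 to 1950, across the middle of the 5′ETS, and alone held 48.2% of the summed counts. Its highest bin, from 1871 to 1880, held 14361 reads and was 35.0 times the median. The 15 bins from 1771 to 1920 held between 9727 and 14361, a range of 1.48-fold, and the bins on either side of them held 4911 and 5431. The lowest bins within 150 bases of the run held 138 on the 5′ side and 634 on the 3′ side, so that the top stood 104 times and 22.7 times above them. Among the bins described, the 4 largest changes between neighbours all lay at the edges of this peak. The bins that meet at 1920 held 11889 and 5431 reads, and those at 1770 held 4911 and 9727. Those at 1930 held 5431 and 2378, and those at 1760 held 2241 and 4911. The 5′ side thus rose, and the 3′ side fell, within about 40 bases.

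Next in height was the peak from 811 to 990, with 4102 reads (3977 to 4229) in the bin from 861 to 870 and 14.4% of the summed counts. The highest peak was 3.50 times as high. The peak from 1021 to 1170 followed after a gap of 3 bins, with 2389 reads in the bin from 1081 to 1090, 5.83 times the median and 7.28% of the summed counts. The lowest bin of that gap held 626 reads. The peak from 2381 to 2460 was the lowest of the 4, with 1337 reads in the bin from 2411 to 2420, 3.26 times the median, and it was no longer called when 5 times the median was required. Against the median of the 500 bases around each bin, this peak and that from 1021 to 1170 were not called, and of the peak from 811 to 990 only 2 single bins were. Around these peaks the counts fell to 137 in the bin from 701 to 710, to 129 in the bin from 2271 to 2280 and to 165 in the bin from 2521 to 2530.

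The 4 peaks differed more than 10-fold in height but little in width. Taken at 50% of the highest bin, they measured 160, 150, 150 and 140 bases in order from the start, which is the length of 1 read. In the highest peak, no fewer than 4019 alignments began and ended inside its 150 bases, since the bins on either side can account for no more than the rest. For the peak from 811 to 990 this least number was 1441, 35.1% of the highest bin, and for the other two it was 144 and 116. The reads were paired, but read ends and the pairing of mates are not part of the deposited table. Whether a peak comes from a piece of RNA of this size or from a longer piece with only 1 mate aligned here was not tested.

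**Figure D3:**
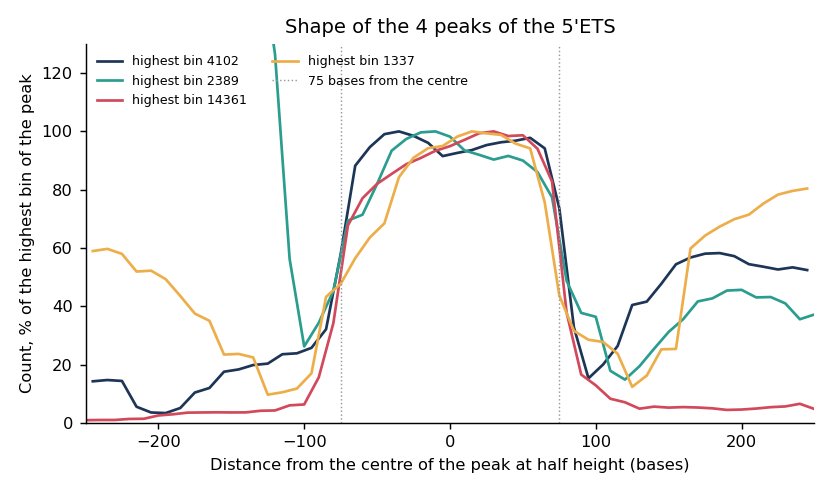
Count per 10 bp bin, in percent of the highest bin of each peak, against the distance in bases from the middle of the stretch with at least 50% of that bin, for the 4 peaks named by the count of their highest bin. Dotted lines mark 75 bases on either side of the centre. All 4 curves cross 50% close to these lines, and the widths at 50% are 140 to 160 bases.

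The early cleavage site was placed in the bin that ends at base 420. The 41 bins before it, from 1 to 410, held 2 to 364 reads with a median of 182.0, and the 41 bins after it, from 421 to 830, held 137 to 2370 with a median of 602.0. The median after the site was 3.31 times that before it, whereas the 2 ranges overlapped. The direction depended on how much sequence was compared. In the 100 bases next to the site, the median was 334.5 before and 225.5 after it, a ratio of 0.674, and this narrower window was chosen after the values were seen. Without the first 150 bases the ratio was 2.58, and without the 150 bases on each side of the site, which reads across it can cover, it was 9.02. For the value of 9.02, most of the bins left before the site lie in the first 150 bases, which fewer positions of a read can cover. The part of this edge in the ratio was not tested.

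At the site itself the profile had no step. The bins from 391 to 440 held 341, 345, 345, 401 and 376 reads in order, with the site in the third of them. The counts then fell to 215 in the bin from 441 to 450 and rose from 207 to 541 at base 520. When the median of the 100 bases after a boundary was divided by that of the 100 bases before it, the value at base 410 was 0.776. Over all 336 boundaries of the 5′ETS this ratio had a median of 1.04 and ran from 0.0547 at base 1950 to 23.4 at base 1750, the edges of the highest peak. The bins before the site lie in the stretch where counts rise from the start. The shares of the start and of the cut in the lower level before the site were not tested.

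**Figure D4:**
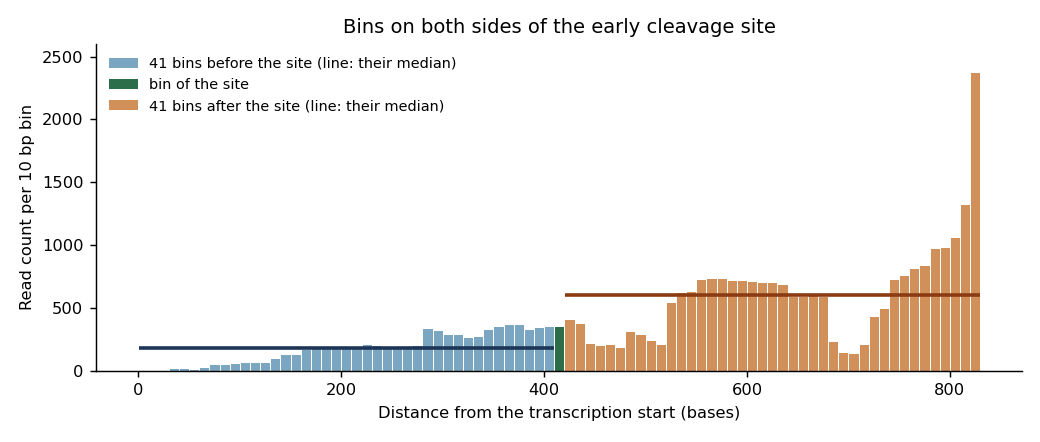
Read count per 10 bp bin against the distance from the transcription start, for the 41 bins before (blue) and the 41 bins after (orange) the bin of the early cleavage site (green). Horizontal lines are the medians, 182.0 before and 602.0 after the site. The last bin before the site holds 345 reads and the first after it 401. With smaller changes between, the orange bins fall to 182, rise to 728, fall to 137 and rise to 2370 at the edge of the next peak.

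The A0 site lies between 1600 and 1700 bases from the start, and the 10 bins of this window held 138 to 516 reads with a median of 390.0. The 40 bins before the window, from 1201 to 1600, had a median of 445.0 and a range from 68 to 1090. The 40 bins after it, from 1701 to 2100, had a median of 1516 and a range from 513 to 14361. The ratio of the medians was 3.41, and 11.3 by means, 87.1 with 200 bases on each side, 0.808 with 800 bases on each side and 1.69 without the highest peak. The stretch of 15 bins of the highest peak began 71 bases after the end of the window. The counts before the window were lowest in the bin from 1531 to 1540, with 68 reads.

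At its 3′ end the 5′ETS was nearly empty up to the border of 18S. The last 3 bins described held 21, 25 and 23 reads. Of the 10 bins left out, the first 9 held between 17 and 50, and the last, from 3651 to 3660, held 17983, 360 times the bin before it, whereas the first bin of 18S held 24164. The table names 1 region per bin, and whether this last bin also holds bases of 18S was not tested, so its count was not read as 5′ETS.

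The bins at the distance of MIR10396B from the start, 3103 to 3153 bases in RNA45SN1, lay in the low 3′ part of the 5′ETS. With 27 bases added on each side, the largest difference in length between the 5 copies, these were 11 bins from 3071 to 3180 with 75 to 184 reads and a median of 147.0. The distance of MIR3648-1 in RNA45SN2 was 2486 to 2665 bases, and the 25 bins from 2451 to 2700 had a median of 934.0, from 165 at the dip from 2521 to 2530 to 1259. No sequence was aligned to the deposited unit, and the reads of these bins were not tied to either microRNA.

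Against the other spacers, the median of the 5′ETS lay close to that of ITS1, below that of ITS2 and above those of the 3′ETS and of the intergenic spacer. Its median of 410, without the 10 bins next to 18S, was 1.01 times that of ITS1 and 0.605 times that of ITS2, whose bins next to mature rRNA were kept, and with all 366 bins the ratios were 0.904 and 0.542. The median of 410 was 7.74 times that of the 3′ETS and 82.0 times that of the intergenic spacer, and it equalled 0.874% of the median of 18S. All these counts leave out reads that STAR placed on the genome. How many each region lost in this way was not tested, so the ratios are not levels of RNA. The upper quartile was 6.32 times the lower in the 5′ETS, 14.9 times in ITS1, 13.4 times in ITS2 and 9.33 times in the 3′ETS. From the lowest to the highest bin the counts ran from 2 to 14361 in the 5′ETS, from 24 to 24046 in ITS1 and from 16 to 20135 in ITS2, so the order of the spread depends on its measure. The internal spacers also held single peaks about 1 read wide. With the first and last bin of ITS2 left out, its highest bin held 20135, 30.6 times the median of the remaining bins. The width at 50% of that count was 160 bases. For ITS1, the range from 5531 to 6400 was set after the values were seen, to leave out the rise towards 5.8S. Its highest bin held 10604, 33.1 times the median of that range and not of all ITS1 bins. The width was 150 bases. With 1 library these are values side by side and no difference between the spacers was tested.

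**Figure D5:**
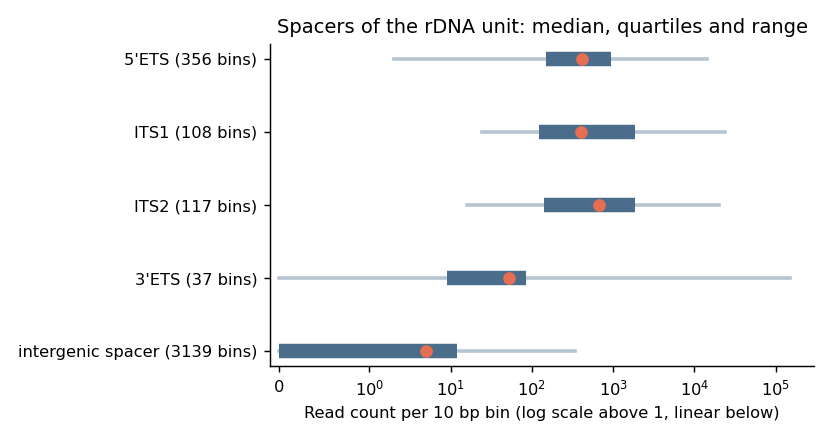
Read count per 10 bp bin in the spacers of the rDNA unit (log scale above 1, linear below), with the median (points), the quartiles (thick bars) and the range (thin bars). The 5′ETS median of 410 lies close to that of ITS1, below that of ITS2 and above those of the 3′ETS and of the intergenic spacer.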

How the data were processed

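PAR-CLIP reads of 1 library, HEK293T cells with the SFB empty vector, were used. Per the methods, the authors aligned cleaned paired reads of 150 bases to T2T-CHM13 v1.1 with STAR, aligned the reads left over to the human rDNA reference with BLASTN, and deposited the reads per 10 bp bin as whole-number counts. In the methods these counts are described as normalized, but the deposited values are whole numbers and were treated as counts. The methods and the submitters' processing notes name different versions of STAR. The depth was 33677888 read pairs, of which 49.0% were unaligned, from the counts deposited by the authors for STAR. Beyond this depth, the reads per gene counted by STAR were not described.

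Bins were summarised by median, range and quartiles. A peak was a run of bins at 3 or more times the median. The least number of alignments was the largest sum over bins at least 160 bases apart. Poisson intervals (95%, exact) cover counting error only, since reads carry no molecular identifiers. They treat reads as independent, although the mates of 1 pair can fall in the same bin, and can therefore be too narrow. The bins named were the first, last, highest and lowest, those at the early cleavage site, the top of each peak and the 5 largest changes between neighbours. The fifth lay at the edge of the peak from 811 to 990, with 3020 and 1344 reads. The bins, cleavage windows and peak rule were chosen with earlier results of these data known. The code was tested on simulated data and ran in Python 3.11.15 with SciPy 1.17.1, numpy 2.4.6, matplotlib 3.10.9 and pandas 2.3.3.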

Additional observations from a re-analysis of the deposited data

How the results depend on the processing

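No paired analysis was possible because the control is a single library. Bins have no replicate error, so any change in a printed value is given, and the cause was not tested. Settings marked with "added" were chosen after seeing the values given here. The bins, cleavage windows and peak rule were chosen with earlier results of these data known.

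The median of 410 was 367.5 with all 366 bins, 378.5 without the highest 1% of bins and, added, 314.0 without peaks, against a mean of 1227. The ratio of the first to the last 1000 bases, 2.68, was 3.42 by means, 1.84 with 500 bases, 2.99 up to the end of the region, 3.81 without the first 150 bases and, added, 2.21 without peaks. The ratio at the early cleavage site, 3.31, was 3.44 by means, 9.02 without 150 bases on each side, 3.21 with all later bins, 3.24 and 3.33 with the site moved 20 bases upstream or downstream, 2.58 without the first 150 bases and, added, 3.24 without the peak and 0.674, the other way, with 100 bases on each side. The ratio at A0, 3.41, was 11.3 by means, 87.1 with 200 bases, 0.808, the other way, with 800 bases and, added, 1.69 without the highest peak. The 4 peaks were 8 at 2 times the median, 3 at 5 times, 4 against the local median of 500 bases, which are other runs and leave out 2 of the 4 peaks, and, added, 11 as local maxima. Their share of the summed counts, 72.3%, was 82.6% at 2 times and 67.2% at 5 times the median. The least number of alignments, 29448, was 23810 with bins 310 bases apart and, added, 25730 as the sum of rises.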

Other observations

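Outside the 4 runs, the 5′ETS profile held further waves. Local maxima that stood at least 2-fold above the lower ground on both sides numbered 11, a rule chosen after the values were seen, and their tops lay 130 to 580 bases apart with a median of 235.0. Beside the 4 peaks they were the bins from 421 with 401 reads, from 561 with 728, from 1291 with 1090, from 2661 with 1128, from 2791 with 362, from 3191 with 198 and from 3411 with 129. From the maximum at 2661 onward, each was lower than the one before it. The lowest of the 10 minima between maxima was the bin from 2961 to 2970 with 16 reads, and the highest was the bin from 991 to 1000 with 626.

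Against the median of the 500 bases around each bin in place of the median of all bins, the runs lay from 831 to 840, 851 to 860, 1761 to 1930 and 2661 to 2670. The highest peak was thus called by both rules, the peak from 811 to 990 was reduced to single bins, and the peaks from 1021 to 1170 and from 2381 to 2460 were not called.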
